A study of Homo sapiens with 42 samples.

Results

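The chromatin around 10 genes of the ETS family of transcription factors was followed in drug-tolerant lung cancer cells. The genes were ETV1, ETV4 and ETV5 (the PEA3 group), ETS1, ETS2, ELF3, EHF, ELK3, FLI1 and ERG. Included were all regions to which the authors' annotation gave 1 of these symbols, which came to 252 of the 242490 annotated regions of the 4 cell lines. PC9, H1975 and HCC2935 each had 74 such regions and HCC827 had 30, and all of them passed the filter on low counts. By the annotation 89 lay at promoters, 65 in introns, 89 in distal intergenic sequence and 9 elsewhere. ELF3 had the most regions in every line, 17 (PC9), 18 (H1975), 6 (HCC827) and 16 (HCC2935). FLI1 had 1 region, in PC9, and ERG had 2 in H1975 and 1 in HCC2935, so that little can be said of either gene.

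ETS proteins share a DNA-binding domain that reads a GGA core, and many of them are switched by phosphorylation at the end of the RAS and MAP kinase cascade, which EGFR feeds. The PEA3 group is held down by the repressor CIC, which the MAP kinase ERK removes from its targets, and its proteins are degraded through the ubiquitin ligase COP1. ETV4 and ETV5 are among the best known transcriptional readouts of active ERK, and all members of the group act in branching epithelia such as the lung. ELF3 and EHF belong to an epithelium-specific branch of the family, ETS1 and ETS2 have an ERK docking domain, ELK3 is a ternary complex factor that binds with serum response factor, and FLI1 and ERG are best known from endothelium and blood.

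The libraries are 42 ATAC-seq libraries, in which a transposase cuts open chromatin, from 4 EGFR mutant lung adenocarcinoma lines, and the design asks what distinguishes cells that tolerate the EGFR inhibitor osimertinib. Control cells had 21 days without drug and then 3 days of DMSO, the solvent. Drug tolerant persister (DTP) cells had 500 nM osimertinib for 24 days, and cells of the sequential combination (combo) had 21 days of 500 nM osimertinib and then 3 days of AZD5153, the other drug of the study, at 150 nM. Only PC9 and H1975 also had AZD5153 alone, as 150 nM for 3 days after 21 days without drug. Each of the 14 groups had 3 libraries, given in the labels as biological triplicates. Each line is 1 culture model of the disease, and whether osimertinib stayed on during AZD5153 is not given. Titles and design name ATAC-seq while the extraction text describes immunoprecipitation of acetylated histone H3, and the values are read here as accessibility. In bulk libraries, fewer cells with an open region and a less open region in every cell cannot be told apart.

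Counts over all regions came to between 3989287 and 5193390 per library in PC9, 6200672 and 10062505 in H1975, 1724680 and 4242868 in HCC827, and 3968690 and 8066287 in HCC2935. Libraries of 1 group differed by 0.959 to 1.04 times counting noise in PC9 and by 0.966 to 1.22 times in H1975, so 8 of 12 and 5 of 12 pairs showed no excess over it. Calls at member genes in these lines, and at some regions, are therefore given a second time with the 3 libraries of a group summed to 1 sample and the dispersion of HCC2935. In HCC827 the ratio reached 8.76, and libraries with the same replicate number deviated together. The 7 epithelial markers had promoter regions in every line, while of 5 leukocyte markers 3 had a region in PC9, H1975 and HCC2935 and 2 in HCC827, with PTPRC absent in all. The leukocyte list summed to between 70.23 and 165.5 CPM in control libraries and the epithelial list to between 1371 and 1851. Endothelial and fibroblast markers also had regions in every line. In control libraries the endothelial list summed to between 317.6 and 726.4 CPM and the fibroblast list to between 45.67 and 121.1. Of 4 lung lineage markers (NKX2-1, SFTPB, NAPSA and SFTA3), 4 had a region in H1975 and 3 in each other line. Their control sums were 54.28 to 58.29 CPM in PC9, 271.9 to 289.7 in H1975, 307.7 to 314.3 in HCC827 and 492.2 to 523.1 in HCC2935. The DTP sums were, in the same order, 57.11 to 64.39, 223.9 to 230.4, 254.9 to 301.8 and 260.3 to 276.9. Region values are CPM (counts scaled to the same library total) over all tested regions and gene values are CPM of the counts summed over all regions annotated to a gene. Changes are log2 fold changes with their standard error (SE), and a region or gene is said to have risen or fallen where the edgeR quasi-likelihood test gave a Benjamini-Hochberg adjusted p under 0.05 over all regions or genes of the line.

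The start sites are shown first because the tables measured accessibility over them. Promoter sequence was read from RefSeq (GRCh38.p14) from 250 bases before to 50 bases after a start, and 6 of the 10 genes were in the table (ELF3, ETV1, EHF, ELK3, ERG and ETS2). Capitals mark the ETS motif CCGGAA and the CIC motif TGAATGAA or TGAATGGA, searched on both strands together with the AP-1 motif TGANTCA, which was in none of those printed. Of the 35116 promoters in the table, 17.2% held the ETS motif, 2.63% a CIC motif and 7.71% the AP-1 motif. ETV1 was the only gene with matches, and its start at the strongest promoter region held an ETS and a CIC motif within a few bases of each other, while another ETV1 start held the ETS motif alone. A match describes the letters of the window and is no evidence of binding.
ETV1, chr7:13991376-13991675, minus strand: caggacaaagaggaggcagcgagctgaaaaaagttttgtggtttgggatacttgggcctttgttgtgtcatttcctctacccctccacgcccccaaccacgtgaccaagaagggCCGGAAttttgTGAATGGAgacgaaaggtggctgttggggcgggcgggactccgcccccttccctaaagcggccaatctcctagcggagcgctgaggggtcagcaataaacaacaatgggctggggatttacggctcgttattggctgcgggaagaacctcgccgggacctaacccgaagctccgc
ETV1, chr7:13990653-13990952, minus strand: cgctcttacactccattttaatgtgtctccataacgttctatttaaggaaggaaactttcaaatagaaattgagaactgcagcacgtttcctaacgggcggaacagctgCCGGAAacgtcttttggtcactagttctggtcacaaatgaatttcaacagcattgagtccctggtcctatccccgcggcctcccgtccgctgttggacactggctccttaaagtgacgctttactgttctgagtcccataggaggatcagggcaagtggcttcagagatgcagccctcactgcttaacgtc
ELF3, chr1:202010337-202010636, plus strand: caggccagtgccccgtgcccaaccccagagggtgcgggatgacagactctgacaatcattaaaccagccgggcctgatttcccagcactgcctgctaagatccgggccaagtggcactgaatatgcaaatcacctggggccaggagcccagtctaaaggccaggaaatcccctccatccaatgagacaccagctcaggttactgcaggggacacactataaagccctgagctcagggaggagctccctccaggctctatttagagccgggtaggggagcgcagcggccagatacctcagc
EHF, chr11:34632316-34632615, plus strand: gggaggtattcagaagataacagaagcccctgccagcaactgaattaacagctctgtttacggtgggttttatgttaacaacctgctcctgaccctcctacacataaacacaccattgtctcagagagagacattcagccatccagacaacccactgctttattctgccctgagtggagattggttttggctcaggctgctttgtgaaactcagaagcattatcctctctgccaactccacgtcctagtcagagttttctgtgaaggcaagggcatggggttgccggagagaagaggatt
ETS2, chr21:38805679-38805978, plus strand: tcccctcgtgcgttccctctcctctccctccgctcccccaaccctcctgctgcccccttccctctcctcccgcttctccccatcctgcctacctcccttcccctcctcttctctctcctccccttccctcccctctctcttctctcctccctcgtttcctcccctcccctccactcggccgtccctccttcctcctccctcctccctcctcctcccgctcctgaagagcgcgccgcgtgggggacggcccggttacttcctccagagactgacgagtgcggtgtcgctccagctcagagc
ELK3, chr12:96194125-96194424, plus strand: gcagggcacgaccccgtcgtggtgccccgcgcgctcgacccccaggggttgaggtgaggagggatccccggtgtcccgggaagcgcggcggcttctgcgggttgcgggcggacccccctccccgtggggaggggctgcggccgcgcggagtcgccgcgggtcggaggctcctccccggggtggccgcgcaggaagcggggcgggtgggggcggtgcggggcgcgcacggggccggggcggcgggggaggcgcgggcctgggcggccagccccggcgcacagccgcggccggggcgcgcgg

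In osimertinib-tolerant cells, accessibility at most of these genes was lower than in control cells of PC9, H1975 and HCC2935. Summed over their regions, ETV4, ETV5, ETS2, ELF3 and ELK3 fell in PC9, H1975 and HCC2935, with log2 changes between -0.20 and -0.75. ETS1 rose in H1975, HCC827 and HCC2935, ETV1 fell in H1975 and HCC2935, and EHF fell in PC9 and H1975 but rose in HCC2935. Of 9 genes measured in PC9, 1 rose and 6 fell, beside 19.5% and 22.7% of all genes. In H1975, 2 of 9 rose and 7 fell, beside 34.1% and 34.9%. In HCC2935, 3 of 9 rose and 6 fell, beside 25.2% each way. In HCC827, 1 of 8 rose and none fell, beside 1.1% and 1.34%. The median change of the genes was -0.241 (PC9), -0.509 (H1975), -0.21 (HCC827) and -0.378 (HCC2935), where that of all genes lay between -0.00214 and 0.0179.

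**Figure D1:**
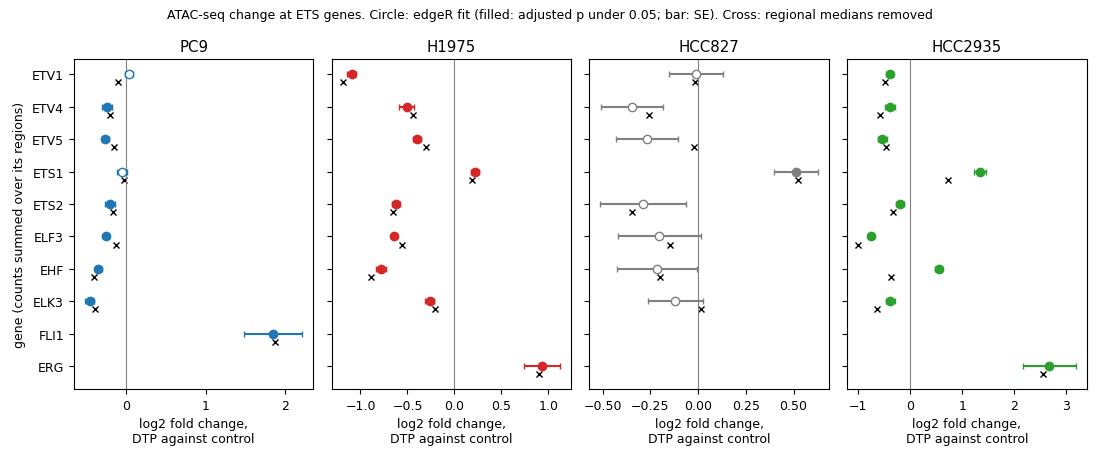
Log2 fold change of DTP against control (horizontal axis) for each ETS gene (vertical axis), summed over its regions, in the 4 lines; circles are the edgeR fit with SE, filled where the adjusted p is under 0.05, and crosses the fit with the median of each 10 Mb stretch removed. The circles of ETV4, ETV5, ETS2, ELF3 and ELK3 lie left of 0 in every line, that of ETS1 right of it in all but PC9, and the HCC2935 value of EHF crosses 0 with regional medians removed.

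Single regions moved in both directions, with more falls than rises in PC9 and H1975. In PC9, 12 of the 74 regions rose and 27 fell, beside 15.4% and 16.4% of all regions tested. In H1975, 12 rose and 44 fell, beside 24.9% and 27%. In HCC2935, 22 rose and 23 fell, beside 18.7% and 18.6%. None of the 30 regions was called in HCC827 (edgeR), where 6137 of 82309 regions had an unadjusted p under 0.05, 0.0158% of all regions rose and 0.00607% fell. The median change of the member regions was -0.203 in PC9 and -0.477 in H1975, and it was -0.00252 in HCC2935, where the 11 called ETS1 regions and 8 of the 14 EHF regions went up. With the libraries summed, 23.3% of all genes were called in PC9 and 48.5% in H1975. EHF, ELK3 and FLI1 then stayed called in PC9, and all genes but ETS1 stayed called in H1975.

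The PEA3 group was lower in DTP cells of H1975 at all 3 genes. ETV1, a factor downstream of receptor tyrosine kinases in several tumours, was at 199.6, 191 and 192 CPM in the H1975 control libraries and at 86.03, 99.7 and 86.4 in the DTP libraries. Its log2 change was -1.09 ± 0.045 (SE, n = 3 and 3, edgeR adjusted p 1.26e-47), and every DTP library lay below every control library. In HCC2935 it stood at 189, 187 and 198 CPM in control and at 148, 152 and 136 in DTP cells, a smaller fall of -0.39 ± 0.069 (SE, n = 3 and 3, edgeR adjusted p 3.04e-05). PC9 showed no such difference, with 183, 167 and 166 CPM in control and 174, 178 and 174 in DTP libraries, and a change of 0.034 ± 0.051 (SE, n = 3 and 3, edgeR adjusted p 0.629).

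The ETV1 start printed above lay in the strongest ETV1 promoter region of every line, chr7:13991204-13991705 in H1975. There the H1975 control libraries had 46.4, 47.6 and 43.7 CPM and the DTP libraries 19.2, 24.04 and 18.02. The promoter thus fell by more than 1 on the log2 scale, -1.17 ± 0.084 (SE, n = 3 and 3, edgeR adjusted p 1.36e-30), while the same promoter changed by 0.11 ± 0.088 in PC9 and 0.10 ± 0.12 in HCC2935 (SE, edgeR adjusted p 0.377 and 0.529). An intronic region of ETV1, chr7:13920108-13920609, went from 44.5, 40.9 and 37.9 CPM in H1975 control to 4.74, 6.69 and 4.93 in DTP cells. Its log2 change was -2.90 ± 0.11 (SE, n = 3 and 3, edgeR adjusted p 9.04e-67), while the HCC2935 libraries overlapped there, with a change of -0.33 ± 0.12 that was called in 6 of 13 alternatives (SE, edgeR adjusted p 0.0357).

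ETV1 also had a distal intergenic region that fell in 3 lines, also in PC9, where the summed gene did not. In PC9 it lay at chr7:13850041-13850542 and went from 11.8, 11.4 and 8.68 CPM to 4.62, 3.09 and 3.00, a change of -1.54 ± 0.24 (SE, n = 3 and 3, edgeR adjusted p 5.97e-09). In H1975 the same region went from 41.1, 38.1 and 35.6 CPM to 12.8, 16.2 and 15.3, a change of -1.36 ± 0.093, and in HCC2935 from 15.7, 15.9 and 14.4 to 8.55, 7.28 and 3.63, a change of -1.24 ± 0.22 (SE, edgeR adjusted p 2.44e-33 and 1.9e-05). The groups did not overlap in any of the 3 lines, and in HCC827 they did not overlap either but the change of -0.71 ± 0.47 was not called (SE, edgeR adjusted p 0.928). The values of this region in the lines other than PC9 were read after its PC9 fall was known.

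ETV5, which with ETV4 guides lung branching downstream of fibroblast growth factor, was lower in DTP cells of the same 3 lines. The control libraries of PC9 stood at 264, 254 and 268 CPM and the DTP libraries at 218, 234 and 203. In H1975 the values were 177, 168 and 165 and 131, 128 and 128, and in HCC2935 129, 161 and 128 and 90.2, 95.02 and 103. No DTP library reached the lowest control library of its line, and the changes were -0.26 ± 0.045, -0.40 ± 0.042 and -0.54 ± 0.086 (SE, n = 3 and 3, edgeR adjusted p 7.81e-08, 1.14e-15 and 7.78e-06). In PC9 the adjusted p was 0.0848 with the libraries summed, and the change was -0.15 with regional medians removed (edgeR adjusted p 0.00356).

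The fall of ETV5 was unevenly spread over its promoter regions. The strongest one, over the RefSeq start, held 118, 110.0 and 112 CPM in PC9 control and 110.3, 118 and 99.6 in PC9 DTP libraries, which overlapped (log2 change -0.046 ± 0.057, SE, n = 3 and 3, edgeR adjusted p 0.579). The same region fell from 89.7, 89.3 and 79.3 CPM to 57.7, 61.8 and 59.00 in H1975 and from 63.3, 84.2 and 60.4 to 46.4, 52.3 and 53.2 in HCC2935. These falls measured -0.53 ± 0.062 and -0.45 ± 0.11 (SE, n = 3 and 3, edgeR adjusted p 1.72e-14 and 0.00085). A weaker promoter region inside the gene, near chr3:186103969-186104470, fell in PC9 from 37.5, 36.5 and 43.4 CPM to 24.1, 28.6 and 27.5 (log2 change -0.56 ± 0.10, SE, n = 3 and 3, edgeR adjusted p 2.31e-06). That region was picked after its values were seen. Away from the promoters ETV5 regions also gained accessibility. A distal region in PC9, chr3:186021716-186022217, went from 1.27, 1.27 and 2.48 CPM to 5.59, 3.87 and 5.00 (log2 change 1.49 ± 0.35, SE, n = 3 and 3, edgeR adjusted p 0.000224). An intronic region in H1975, chr3:186097734-186098235, went from 1.24, 0.404 and 1.35 CPM to 2.43, 2.15 and 2.35 (log2 change 1.22 ± 0.35, SE, n = 3 and 3, edgeR adjusted p 0.00163). Both regions were low in control cells and were named as largest rises. They may have entered the region set through the libraries where they are high, so these changes may be too large.

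At ETV4, a factor tied to invasion in epithelial tumours, promoter regions of the same gene moved in opposite directions. Summed, it went from 113, 110.5 and 124 CPM to 102, 102 and 90.4 in PC9, a change of -0.24 ± 0.064, and from 45.4, 43.1 and 43.3 to 33.1, 29.9 and 29.8 in H1975, a change of -0.51 ± 0.076 (SE, n = 3 and 3, edgeR adjusted p 0.000802 and 2.6e-09). HCC2935 went from 83.8, 88.6 and 78.4 CPM to 65.00, 68.5 and 59.2, a change of -0.38 ± 0.095 (SE, n = 3 and 3, edgeR adjusted p 0.00153). The groups did not overlap in any of these lines, and with the libraries summed the PC9 adjusted p was 0.151. At a promoter region just inside the RefSeq start, chr17:43544510-43545011 in HCC2935, values fell from 10.7, 14.5 and 8.14 CPM to 4.94, 3.80 and 2.29 (log2 change -1.59 ± 0.29, SE, n = 3 and 3, edgeR adjusted p 2.87e-05). The matching region fell in H1975, with -2.13 ± 0.24 and in PC9, with -0.89 ± 0.23 (log2 change ± SE, edgeR adjusted p 1.33e-15 and 0.00116), which was read after the HCC2935 value was known.

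A promoter region at a distant ETV4 start rose instead. In H1975 it lay at chr17:43579518-43580019, and the DTP libraries had 2.69, 2.61 and 2.58 CPM against 0.619, 0.404 and 0.674 in control. The counts were 67 against 12 over 3 libraries each, a ratio per unit of depth of 4.66 (95% exact interval 2.5 to 9.46, counting error only, edgeR adjusted p 2.05e-07). HCC2935 had 7.98, 7.44 and 5.53 CPM in DTP against 1.09, 0.591 and 1.56 in control libraries, a ratio of 6.52 (95% exact interval 3.59 to 13, counting error only, edgeR adjusted p 3.46e-07). The region was barely open in the control cells of both lines, and in PC9, where it was the strongest ETV4 promoter region with 19.7, 15.7 and 18.6 CPM, it changed by -0.20 ± 0.15 (SE, n = 3 and 3, edgeR adjusted p 0.317). In H1975 and HCC2935 it may have entered the region set through the libraries where it is high, so the ratios may be too large.

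ETS1, a factor of invasion and of endothelial and lymphoid cells, rose in 3 of the 4 lines. HCC2935 went from 58.9, 47.9 and 73.01 CPM in control to 175, 151 and 126 in DTP libraries, 2.53 times as high on the fitted scale. The log2 change was 1.34 ± 0.12 (SE, n = 3 and 3, edgeR adjusted p 5.12e-10). The median of all regions in the same 10 Mb stretch of chromosome 11 rose by 0.59 in HCC2935, and with such regional medians removed the ETS1 change was 0.72 (edgeR adjusted p 3.43e-06). H1975 went from 126, 138 and 145 CPM to 153, 159 and 163 (log2 change 0.22 ± 0.043, SE, n = 3 and 3, edgeR adjusted p 3.49e-06, and 0.124 with the libraries summed). PC9 was not called, with 124, 115 and 113 CPM in control and 102, 129.8 and 108 in DTP libraries (log2 change -0.048 ± 0.062, SE, n = 3 and 3, edgeR adjusted p 0.571).

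An intronic region of ETS1, about 3.6 kb from an annotated start, was higher in DTP libraries in all 4 lines. In HCC2935 it lay at chr11:128467524-128468025 and went from 1.31, 0.591 and 1.88 CPM, close to closed, to 26.8, 26.3 and 17.4. In PC9 it went from 12.7, 13.2 and 11.2 CPM to 17.98, 30.2 and 23.3, and in HCC827 from 31.4, 36.9 and 40.05 to 67.4, 58.7 and 75.6. The log2 changes were 4.20 ± 0.29 in HCC2935, 0.94 ± 0.15 in PC9 and 0.90 ± 0.27 in HCC827 (SE, n = 3 and 3, edgeR adjusted p 1.12e-15, 4.79e-09 and 0.299), and the HCC827 p was 0.0182 with the replicate number as a block. The groups did not overlap in these lines, and H1975 rose there by 0.52 (log2, edgeR adjusted p 9.43e-08). The regions over the ETS1 starts nearest to it, which were read after their values were seen, were nearly empty in control cells. They too may have entered the region set through libraries where they are high, so their ratios may be too large. At chr11:128463902-128464403 the H1975 DTP libraries held 115 counts and the control libraries 5, a ratio of 19.2 (95% exact interval 7.98 to 60.2, counting error only), and at chr11:128463419-128463920 the HCC2935 libraries held 105 against 3, a ratio of 23.6 (95% exact interval 7.86 to 116, counting error only). The strongest ETS1 promoter region, which lies at another start, fell in H1975 from 14.1, 20.04 and 19.3 CPM to 11.1, 12.02 and 10.6 (log2 change -0.67 ± 0.12, SE, n = 3 and 3, edgeR adjusted p 2.1e-07).

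**Figure D2:**
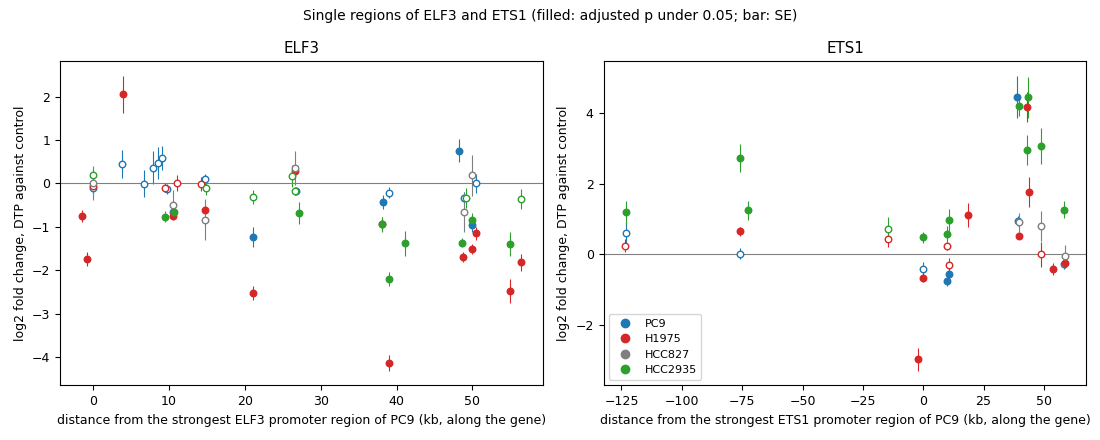
Log2 fold change of DTP against control (vertical axis) of every single region of ELF3 (left) and ETS1 (right) by its distance along the gene from the strongest promoter region of PC9 in kb (horizontal axis, negative values upstream); colours are the 4 lines, bars the SE, and filled points have an edgeR adjusted p under 0.05. The strongest region annotated as an ELF3 promoter, at 0 kb and not over the RefSeq start, shows changes near 0 in all lines. A region far downstream lies at -4.14 in H1975, and the highest ETS1 values stand together inside the gene, among them 4.20 for the intronic region in HCC2935.

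ETS2, the close relative of ETS1, went the other way in 3 lines. The control libraries of H1975 had 201, 196 and 188 CPM and the DTP libraries 122, 132 and 125, a change of -0.62 ± 0.042 (SE, n = 3 and 3, edgeR adjusted p 3.02e-28). PC9 went from 106, 115 and 111 CPM to 95.7, 98.3 and 94.9, and HCC2935 from 113, 97.8 and 114 to 93.2, 96.7 and 92.3. These changes were small, -0.21 ± 0.065 and -0.20 ± 0.079 (SE, n = 3 and 3, edgeR adjusted p 0.00568 and 0.0367), the first had an adjusted p of 0.238 with the libraries summed, and the second was called in 6 of 12 alternatives. The promoter over the ETS2 start printed above changed by -0.11 ± 0.11 in H1975 and 0.075 ± 0.14 in PC9 (SE, n = 3 and 3, edgeR adjusted p 0.431 and 0.736). A region about 7.2 kb upstream was the only called ETS2 region in PC9, where it lay at chr21:38797460-38797961 and went from 14.3, 11.2 and 15.9 CPM to 5.35, 4.90 and 5.26, a change of -1.41 ± 0.20 (SE, n = 3 and 3, edgeR adjusted p 4.64e-10). It also fell in H1975, with -1.94 ± 0.12 (log2 change ± SE, edgeR adjusted p 5.12e-36), and in HCC2935, with -1.08 ± 0.26 (edgeR adjusted p 0.00113), both read after the PC9 value was known.

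ELF3, which keeps epithelial differentiation programmes active, fell in 3 lines. The strongest region annotated as its promoter, which does not lie over the RefSeq start, was not called in any. Summed, it went from 399, 391 and 362 CPM to 240.2, 257 and 241 in H1975 and from 707, 631 and 598 to 394, 366 and 391 in HCC2935. In PC9 it went from 344, 331 and 327 CPM to 278, 286 and 274. No group overlapped its control, and the changes were -0.64 ± 0.034, -0.75 ± 0.062 and -0.25 ± 0.040 (SE, n = 3 and 3, edgeR adjusted p 1.43e-37, 1.3e-10 and 4.89e-09), the last with an adjusted p of 0.0886 once the libraries were summed. Of its regions 12 of 18 fell and 2 rose in H1975, beside 27% and 24.9% of all regions. In HCC2935 9 of 16 fell and 0 rose, beside 18.6% and 18.7%. In PC9 4 of 17 fell and 1 rose, beside 16.4% and 15.4%. With regional medians removed the PC9 change was -0.13 (edgeR adjusted p 0.00746). The 7 epithelial markers, summed, were lower in DTP than in control libraries too, at 1299 to 1352 against 1505 to 1609 CPM in PC9, 1331 to 1373 against 1616 to 1671 in H1975 and 1283 to 1356 against 1371 to 1573 in HCC2935. In HCC827, where ELF3 was not called, they stood at 1088 to 1549 against 1772 to 1851 CPM. The part of these markers in the ELF3 result was not tested.

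The strongest region annotated as an ELF3 promoter, chr1:202008087-202008588 in H1975, had 21.2, 18.4 and 19.01 CPM in control and 16.1, 21.9 and 17.7 in DTP libraries, which overlapped. Its log2 change was -0.063 ± 0.10 in H1975, -0.10 ± 0.14 in PC9 and 0.18 ± 0.13 in HCC2935 (SE, n = 3 and 3, edgeR adjusted p 0.635, 0.612 and 0.285). About 33 kb downstream of an annotated start, a distal region was nearly closed in DTP cells of H1975. It lay at chr1:202047010-202047511 and went from 26.6, 27.7 and 20.9 CPM to 0.768, 1.36 and 2.02 (log2 change -4.14 ± 0.17, SE, n = 3 and 3, edgeR adjusted p 7.85e-62). In HCC2935 the same region went from 46.5, 35.7 and 35.4 CPM to 8.93, 9.10 and 7.63 (log2 change -2.20 ± 0.16, SE, n = 3 and 3, edgeR adjusted p 1.51e-14). PC9 kept it, with 21.9, 27.6 and 22.1 CPM in control and 17.98, 22.2 and 21.8 in DTP libraries, and in the fit over matched regions its change differed between lines (limma adjusted p 3.89e-15).

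The ELF3 start printed above was covered by a region that the annotation gave to the antisense gene ELF3-AS1, so that it fell outside the members, and it was added after its values were seen. Reads carry no strand here, and the gene and its antisense partner cannot be told apart. In H1975 it held 59.8, 58.2 and 52.5 CPM in control, 39.7, 41.3 and 33.1 in DTP and 25.7, 30.5 and 28.5 in AZD5153 libraries. In H1975 control cells it was thus more accessible than the annotated ELF3 promoter region called strongest above. It fell in both comparisons, with -0.58 ± 0.072 and -1.02 ± 0.079 (log2 change ± SE, n = 3 and 3, edgeR adjusted p 4.6e-13 and 7.89e-28), and the other lines had no call for DTP there.

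EHF, the other epithelial member, was lower in DTP cells of PC9 and H1975. PC9 went from 355, 299 and 327 CPM to 251.1, 266 and 249 and H1975 from 99.3, 94.2 and 96.9 to 59.4, 55.8 and 54.2, changes of -0.35 ± 0.041 and -0.78 ± 0.056 (SE, n = 3 and 3, edgeR adjusted p 5.71e-15 and 2.05e-26). Both kept their call with the libraries summed (adjusted p 0.0143 and 1.57e-09 in edgeR). In PC9 a region just upstream of the EHF start printed above, chr11:34631670-34632171, went from 16.2, 16.2 and 16.9 CPM to 6.56, 6.45 and 6.76 (log2 change -1.32 ± 0.18, SE, n = 3 and 3, edgeR adjusted p 9.15e-11). The region over that start, chr11:34632340-34632841, rose by 0.54 (log2, edgeR adjusted p 0.000909) and was picked after its values were seen. The strongest EHF promoter region, chr11:34640263-34640764, went from 41.6, 36.2 and 37.2 CPM to 19.9, 16.2 and 19.8 (log2 change -1.03 ± 0.12, SE, n = 3 and 3, edgeR adjusted p 3.97e-16).

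In HCC2935 the EHF values went up, from 226, 216 and 215 CPM in control to 341, 324 and 300.5 in DTP libraries (log2 change 0.55 ± 0.066, SE, n = 3 and 3, edgeR adjusted p 9.18e-08). All tested regions in that 10 Mb stretch of chromosome 11 had a median rise of 0.94 in the same comparison. With regional medians removed, the EHF change turned to -0.37 (edgeR adjusted p 2.29e-05), so the direction in HCC2935 depends on whether it is read against the genome or against its neighbourhood. In PC9 and H1975 the values with regional medians removed were -0.40 and -0.88.

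ELK3, which represses serum response targets until it is phosphorylated, fell in 3 lines by modest amounts. PC9 went from 148, 142 and 135 CPM to 102, 103 and 103, and all 6 of its regions there fell, beside 16.4% of all regions. H1975 went from 109, 118 and 114 CPM to 98.2, 89.97 and 96.7 and HCC2935 from 93.02, 94.97 and 101 to 73.6, 80.3 and 66.2. The groups were apart in each line, with changes of -0.46 ± 0.061, -0.26 ± 0.049 and -0.38 ± 0.089 (SE, n = 3 and 3, edgeR adjusted p 2.54e-12, 9.74e-07 and 0.000732), and the PC9 and H1975 calls stayed with the libraries summed (edgeR adjusted p 0.0019 and 0.0491). With regional medians removed the HCC2935 falls were larger, at -0.63 for ELK3, -0.34 for ETS2 and -0.57 for ETV4. The region over the start printed above changed by -0.38 ± 0.15 in PC9 (SE, n = 3 and 3, edgeR adjusted p 0.0368) and was not called in the other lines.

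FLI1 and ERG rest on few counts. The only FLI1 region, distal and in PC9 at chr11:128815286-128815787, held 1.27, 1.52 and 1.49 CPM in control and 5.10, 5.93 and 4.75 in DTP libraries, which is 4 to 6 against 19 to 23 counts per library. It rose by 1.85 ± 0.37 (SE, n = 3 and 3, edgeR adjusted p 8.36e-06). ERG rose in H1975 from 3.81, 4.56 and 4.45 CPM to 7.34, 8.27 and 8.87 over 2 intronic regions (log2 change 0.93 ± 0.19, SE, n = 3 and 3, edgeR adjusted p 9.24e-06). Its single HCC2935 region, chr21:38478627-38479128, held 61 counts in the DTP and 6 in the control libraries, a ratio of 6.86 (95% exact interval 2.97 to 19.4, counting error only). Both genes were near the low end of what these libraries can measure, and their regions may have entered the region set through the libraries where they are high.

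HCC827 had the widest spread between libraries, and a missing call there does not show that a gene was unchanged. ETS1 rose from 123, 137 and 128 CPM to 178, 181 and 192 (log2 change 0.51 ± 0.11, SE, n = 3 and 3, edgeR adjusted p 0.0396), and the groups were apart. The call held in 3 of 12 alternatives, 1 of them the replicate block (edgeR adjusted p 0.011), and it was lost whenever a control or DTP library was left out. ETV4 had 76.3, 76.5 and 69.8 CPM in control and 64.6, 64.1 and 49.3 in DTP libraries, and ETV5 had 174, 174 and 182 and 156, 151 and 135. Their groups did not overlap either, but the changes of -0.35 ± 0.16 and -0.27 ± 0.16 did not pass (SE, n = 3 and 3, edgeR adjusted p 0.285 and 0.432). With the replicate block, 10.3% of all genes and 3.88% of all regions were called, and 2 of the 30 member regions, 1 in each direction.

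**Figure D3:**
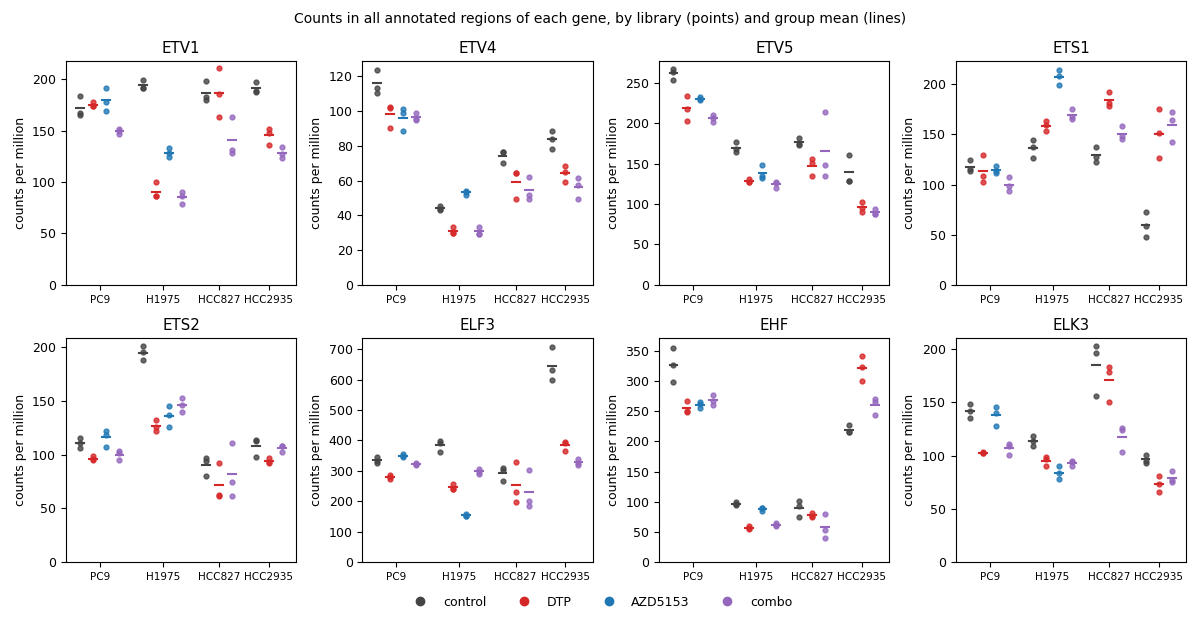
CPM summed over all annotated regions of each of 8 ETS genes (vertical axis, from 0) in every library of the 4 lines (points), coloured by control, DTP, AZD5153 and combo, with the group mean as a line. ETV1 in H1975 drops from 191 to 199.6 CPM in control to 86.0 to 99.7 in DTP libraries, ETS1 in HCC2935 climbs, and HCC827 points spread most.

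When AZD5153 followed osimertinib, member genes were called in PC9, H1975 and HCC2935. The DTP libraries are the same as in the comparison with control. A rise there followed by a fall here, or the reverse, can thus come in part from the spread of the DTP libraries. In PC9, 1 of 9 genes rose and 3 fell between DTP and combo cells, beside 15.6% and 17.5% of all genes. In H1975, 2 of 9 rose and none fell, beside 19% and 20.1%. In HCC2935 none rose and 2 of 9 fell, beside 4.31% and 10.9%, and in HCC827 none of 8 was called, beside 0% each way (edgeR, with 1207 of 13598 genes at an unadjusted p under 0.05). Leaving out 1 library at a time gave between 2 and 5 called in PC9, 2 and 4 in H1975 and 1 and 3 in HCC2935. With the libraries summed, no member gene was called in PC9 or H1975, where 11.7% and 10.9% of all genes were. Among regions, 15 of 74 rose and 13 fell in PC9 (10.6% and 11.7% of all), 23 rose and 3 fell in H1975 (11.5% and 9.48%), 4 rose and 10 fell in HCC2935 (1.9% and 6.4%), and none of 30 was called in HCC827 (0% each way, edgeR, with 2164 of 82309 regions at an unadjusted p under 0.05).

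ELF3 was the member with the most regions gained in combo cells of H1975. Summed, it had 240.2, 257 and 241 CPM in DTP and 307, 290.3 and 297 in combo libraries of H1975, and 278, 286 and 274 and 318, 321 and 326 in PC9. These rises were 0.28 ± 0.034 and 0.20 ± 0.040 (SE, n = 3 and 3, edgeR adjusted p 2.68e-11 and 6.14e-06), with adjusted p of 0.104 and 0.269 when libraries were summed. Of the 18 H1975 regions 11 rose, beside 11.5% of all regions. The strongest promoter region, flat in the DTP comparison, was higher in combo cells of both lines. It reached 35.4, 26.2 and 26.4 CPM in PC9 against 19.4, 19.1 and 17.3 in DTP libraries (log2 change 0.66 ± 0.12, SE, n = 3 and 3, edgeR adjusted p 3.36e-06), and 25.1, 27.1 and 26.6 against 16.1, 21.9 and 17.7 in H1975 (log2 change 0.49 ± 0.093, SE, n = 3 and 3, edgeR adjusted p 9.74e-06). A distal region at chr1:202063073-202063574 regained part of its signal in H1975, from 1.15, 1.13 and 0.784 CPM to 2.75, 3.12 and 1.80, where control libraries had 5.57, 6.59 and 5.12 (log2 change 1.30 ± 0.32, SE, n = 3 and 3, edgeR adjusted p 0.00111). The epithelial markers also stood higher in combo than in DTP libraries, at 1588 to 1628 CPM in PC9 and 1517 to 1571 in H1975, and their part was not tested.

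In HCC2935 both epithelial members were lower in combo than in DTP cells, ELF3 after a fall under osimertinib and EHF after a rise. That EHF rise turned to -0.37 with regional medians removed (edgeR adjusted p 2.29e-05). ELF3 went from 394, 366 and 391 CPM in DTP to 339, 318 and 325 in combo libraries (log2 change -0.23 ± 0.063, SE, n = 3 and 3, edgeR adjusted p 0.0133). EHF went from 341, 324 and 300.5 CPM to 265, 271 and 244 (log2 change -0.31 ± 0.062, SE, n = 3 and 3, edgeR adjusted p 0.00116). The groups were apart for both genes. Among called regions above the median level, the largest fall was distal to ELF3 at chr1:202064510-202065011, from 8.55, 6.95 and 7.44 CPM to 3.35, 3.89 and 2.01 (log2 change -1.26 ± 0.26, SE, n = 3 and 3, edgeR adjusted p 0.000756), and the largest rise was in an intron of ELK3 at chr12:96215185-96215686, from 5.89, 6.45 and 7.06 CPM to 9.67, 14.3 and 11.1 (log2 change 0.87 ± 0.21, SE, n = 3 and 3, edgeR adjusted p 0.00468).

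In H1975 an intronic ETS1 region, chr11:128488486-128488987, went from 2.56, 2.38 and 2.13 CPM in DTP to 1.31, 1.37 and 1.01 in combo libraries, after a rise under osimertinib from 0.619, 1.08 and 1.48 (log2 change -0.93 ± 0.31, SE, n = 3 and 3, edgeR adjusted p 0.0213, and 0.124 with the libraries summed). The region was low in control cells and may have entered the region set through the libraries where it is high.

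In PC9, EHF regions that had fallen under osimertinib rose again in combo cells. At chr11:34631670-34632171 the combo libraries had 16.6, 13.3 and 10.4 CPM against 6.56, 6.45 and 6.76 in DTP libraries (log2 change 1.03 ± 0.19, SE, n = 3 and 3, edgeR adjusted p 4.51e-06, and 0.00789 with the libraries summed). The strongest promoter region rose from 19.9, 16.2 and 19.8 CPM to 29.02, 25.2 and 29.8 (log2 change 0.58 ± 0.12, SE, n = 3 and 3, edgeR adjusted p 6.75e-05, and 0.113 with the libraries summed). The gene summed over 13 regions changed by 0.070 ± 0.042 (SE, edgeR adjusted p 0.201). ETV1 fell in PC9 combo cells, from 174, 178 and 174 CPM to 152, 150.0 and 147 (log2 change -0.23 ± 0.052, SE, n = 3 and 3, edgeR adjusted p 0.000146), and with regional medians removed it was -0.091 and not called (edgeR adjusted p 0.187). The largest ETV1 fall was at a distal region at chr7:13879960-13880461, which went from 4.37, 4.38 and 7.76 CPM to 1.71, 2.65 and 2.13. ETS1 and FLI1 also fell there, with -0.18 ± 0.063 and -0.78 ± 0.30 (log2 change ± SE, n = 3 and 3, edgeR adjusted p 0.0157 and 0.029), and the strongest ETS1 promoter region went from 8.75, 11.9 and 6.26 CPM to 4.88, 3.45 and 4.53 (log2 change -1.05 ± 0.24, SE, n = 3 and 3, edgeR adjusted p 0.000226).

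AZD5153 alone gave a call at every measured member in H1975 and at 3 in PC9. The control libraries are the same as in the DTP comparison. Of 9 genes, 0 rose and 3 fell in PC9, beside 16.5% and 18.7% of all genes, and 3 rose and 6 fell in H1975, beside 38.6% and 39.6%. With the libraries summed, 16.1% of all genes were called in PC9, EHF alone of the members, and 65.2% in H1975. Of the 74 member regions, 13 rose and 15 fell in PC9 (11.2% and 14.6% of all regions), and 17 rose and 40 fell in H1975 (26.7% and 31.4%). In PC9 EHF fell from 355, 299 and 327 CPM in control to 255, 261 and 266 in AZD5153 libraries (log2 change -0.32 ± 0.041, SE, n = 3 and 3, edgeR adjusted p 7.46e-13, and 0.0397 with the libraries summed). ETV4 and ETV5 fell there, with -0.27 ± 0.064 and -0.18 ± 0.043 (log2 change ± SE, n = 3 and 3, edgeR adjusted p 0.000174 and 0.000199), with adjusted p of 0.13 and 0.308 when libraries were summed. Among called regions above the median level, the largest fall was at chr17:43536617-43537118, a region given to ETV4 but lying in an intron of another gene. It went from 5.08, 5.07 and 4.46 CPM to 2.15, 0.928 and 1.41 (log2 change -1.68 ± 0.35, SE, n = 3 and 3, edgeR adjusted p 3.22e-05). The largest rise was at the distal ETV5 region, to 4.31, 4.64 and 5.39 CPM (log2 change 1.47 ± 0.35, SE, n = 3 and 3, edgeR adjusted p 0.000281). That ETV5 region was low in control cells and may have entered the region set through treated libraries.

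The largest gene-level change under AZD5153 in H1975 was at ELF3. It went from 399, 391 and 362 CPM in control to 151, 150.2 and 159 in AZD5153 libraries, and 16 of its 18 regions fell, beside 31.4% of all regions. The log2 change was -1.32 ± 0.038 (SE, n = 3 and 3, edgeR adjusted p 8.48e-65). At chr1:202046203-202046704, a distal region, values went from 10.7, 10.4 and 10.7 CPM to 0.516, 0.522 and 0.456 (log2 change -4.37 ± 0.28, SE, n = 3 and 3, edgeR adjusted p 9.97e-37), and the strongest promoter region went from 21.2, 18.4 and 19.01 to 8.13, 7.49 and 8.10 (log2 change -1.29 ± 0.13, SE, n = 3 and 3, edgeR adjusted p 6.55e-19). The 10 Mb stretch around ELF3 had a median change of -0.49 in this comparison, and the gene change with regional medians removed was -0.80 (edgeR adjusted p 1.26e-30). The 7 epithelial markers, summed, stood at 1616 to 1671 CPM in control and 838.3 to 861.1 in AZD5153 libraries of H1975, and their part in the ELF3 result was not tested.

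Such shifts of whole stretches were large in H1975 under AZD5153 and changed the sign of ETV1 and ETV5 once they were removed. ETV1 went from 199.6, 191 and 192 CPM to 128, 124 and 133 (log2 change -0.59 ± 0.043, SE, n = 3 and 3, edgeR adjusted p 5.26e-26), but its stretch had a median change of -0.72, and with regional medians removed the value was 0.10 (edgeR adjusted p 0.0457). ETV5 went from 177, 168 and 165 CPM to 135, 149 and 132 (log2 change -0.31 ± 0.043, SE, n = 3 and 3, edgeR adjusted p 1.86e-10), and to 0.20 with regional medians removed (edgeR adjusted p 0.000172). ETS1 rose from 126, 138 and 145 CPM to 209, 199 and 214 and kept its direction, with 0.61 ± 0.042 before and 0.24 after (SE, n = 3 and 3, edgeR adjusted p 5.07e-28 and 6.55e-06). ETS2 fell, with -0.51 ± 0.043 before and -0.26 after (log2 change ± SE, edgeR adjusted p 9.95e-22 and 5.02e-07). ELK3 fell, with -0.45 ± 0.052 and kept no call after the removal (log2 change ± SE, edgeR adjusted p 8.19e-14 and 0.0948).

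ETV4 rose under AZD5153 in H1975, from 45.4, 43.1 and 43.3 CPM to 51.7, 53.6 and 54.1 (log2 change 0.28 ± 0.069, SE, n = 3 and 3, edgeR adjusted p 0.00019, and 0.0574 with the libraries summed). The distant promoter region that had opened under osimertinib was higher still, at 4.90, 6.10 and 5.82 CPM, with 124 counts against 12 in control libraries, a ratio of 9.9 (95% exact interval 5.47 to 19.7, counting error only). Its values in control, DTP and AZD5153 libraries did not overlap. ERG rose by 1.18 ± 0.19 (log2 change ± SE, n = 3 and 3, edgeR adjusted p 1.68e-08), and EHF fell slightly, with -0.12 ± 0.052 (edgeR adjusted p 0.0259, and 0.354 with the libraries summed), a value that was -0.48 with regional medians removed (edgeR adjusted p 1.11e-11).

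**Figure D4:**
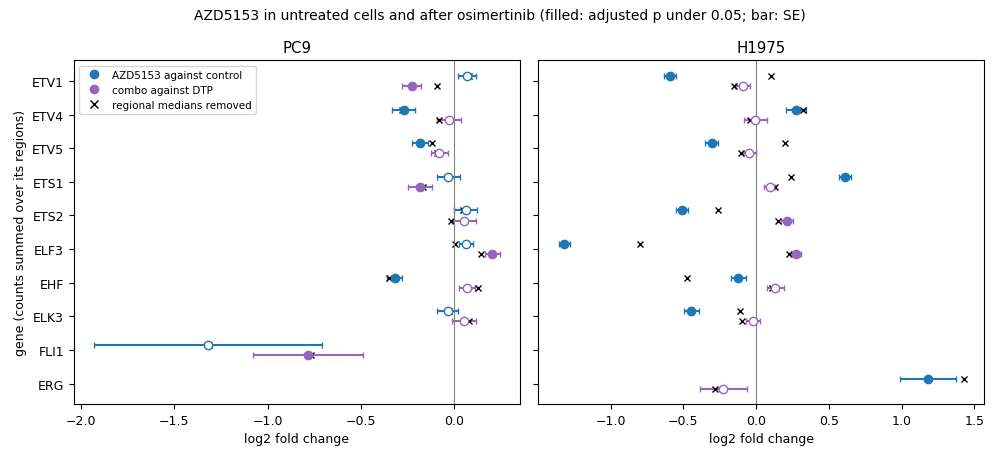
Log2 fold change (horizontal axis) of AZD5153 against control and of combo against DTP for each ETS gene (vertical axis) in PC9 and H1975; bars are the SE, filled points have an edgeR adjusted p under 0.05, and crosses show the fit with regional medians removed. In H1975 ELF3 lies at -1.32 without osimertinib and at 0.28 after it, and for AZD5153 against control the crosses of ETV1 and ETV5 lie on the other side of 0 from their circles.

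The change with AZD5153 was compared between tolerant and untreated cells as the interaction of both contrasts. Whether osimertinib stayed on in combo cells is not given, so AZD5153 cannot be told apart here from days without osimertinib. The interaction was called for 9 of 9 members in H1975, where 70.3% of all genes were called, and for 4 of 9 in PC9, where 23% were. With the libraries summed, EHF, ETV4 and ETV5 lost the H1975 call (edgeR adjusted p 0.204, 0.215 and 0.172). With regional medians removed, ELK3 went from 0.42 to 0.014 and ETS1 from -0.52 to -0.11, neither called (edgeR adjusted p 0.892 and 0.135), and ETV1 and ETV5 turned to -0.26 and -0.31. ELF3 in H1975 differed by 1.59 ± 0.051 (log2, combo minus DTP less AZD5153 minus control, ± SE, edgeR adjusted p 1.38e-58), and it was 1.02 with regional medians removed. ERG, on few counts, differed by -1.41 ± 0.25 (SE, edgeR adjusted p 4.44e-07), and by -1.71 with regional medians removed. ETS2 in H1975 differed by 0.72 ± 0.061 (SE, edgeR adjusted p 2.93e-21), falling under AZD5153 alone and rising from 122, 132 and 125 CPM in DTP to 146, 139.5 and 153 in combo libraries. In PC9 EHF differed by 0.39 ± 0.059 (SE, edgeR adjusted p 5.39e-09), and its region at chr11:34631670-34632171 by 2.25 ± 0.26 (edgeR adjusted p 2.83e-14, and 8.68e-06 with the libraries summed). No PC9 member gene kept its call with the libraries summed.

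Promoters were compared between lines on 82802 regions matched by overlap in all 4 tables, of which 81122 were tested in 1 limma fit. For 8 members a region that the annotation calls a promoter in at least 1 line was matched, and the strongest such region was used. The EHF region is not among the annotated regions of EHF in H1975 and HCC827, nor the ETS1 region among those of ETS1 in HCC827. In control cells, the level differed between lines at all 8, beside 87.3% of all matched regions. Between lines, accessibility cannot be told apart from copy number or from any batch tied to a line. Fitted pairwise, EHF was highest in PC9, at 54.8, 47.5 and 48.8 CPM of matched regions, and lowest in H1975, at 5.86, 4.95 and 8.12 (log2 difference -3.05, limma adjusted p 1.6e-21). HCC2935 and HCC827 lay between, and did not differ from each other beyond their spread (log2 difference 0.167, limma adjusted p 0.589). ETV5 was the most accessible of the matched promoters in each line, with 156, 144 and 146 CPM in PC9, the highest, and 131, 131 and 119 in H1975. HCC827, at 99.9, 96.8 and 125, and HCC2935, at 92.5, 124 and 87.5, were lower and did not differ from each other beyond their spread (log2 difference -0.101, HCC2935 minus HCC827, limma adjusted p 0.525). ETV4 was highest in HCC2935 and lowest in H1975, at 10.6, 10.5 and 10.4 CPM (log2 difference 1.66, HCC2935 minus H1975, limma adjusted p 6.49e-13), and ELF3 promoters in PC9 and H1975 did not differ beyond their spread (log2 difference 0.105, limma adjusted p 0.449). The ELF3 region used here and for the DTP change does not lie over the RefSeq start.

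The DTP change differed between lines at 4 of the 8 promoters, beside 44% of all matched regions. ETV1 was at -1.14 in H1975 and at 0.163, 0.388 and 0.0484 in PC9, HCC827 and HCC2935 (log2, limma adjusted p 9.43e-15). EHF was at -2.2 in H1975, -0.969 in PC9, -0.0452 in HCC827 and 0.194 in HCC2935 (limma adjusted p 5.82e-10). ETV5 was at -0.476 in H1975 and -0.47 in HCC2935 against 0.00572 in PC9 and -0.118 in HCC827 (limma adjusted p 1.16e-06), and ETS1 was above 0 only in HCC2935, at 0.405 (limma adjusted p 0.00664). The HCC2935 stretch around ETS1 had a median rise of 0.59, and in the fit of that line the ETS1 promoter went from 0.48 to -0.14 with regional medians removed. For ELF3, ETS2, ETV4 and ELK3 the difference did not pass (limma adjusted p 0.842, 0.349, 0.407 and 0.205), which does not show that the lines were alike.

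**Figure D5:**
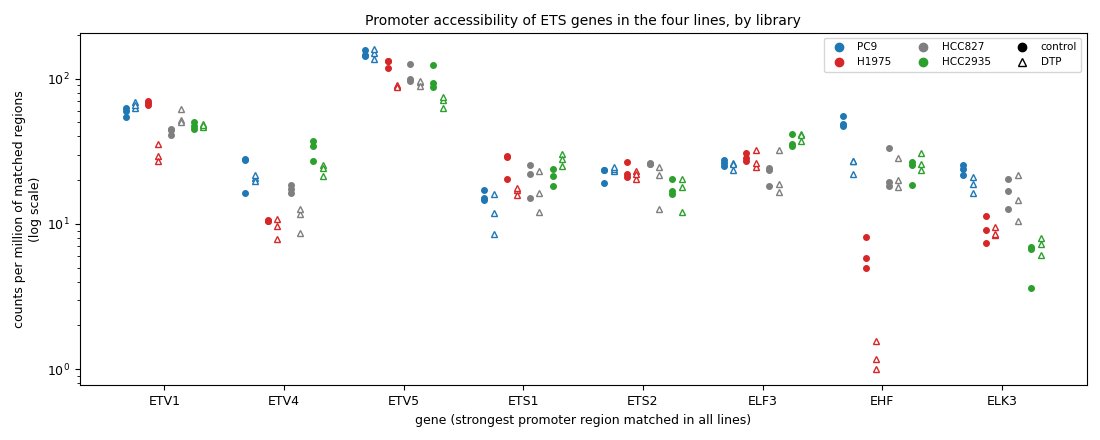
CPM of matched regions (vertical axis, log scale) at the strongest matched promoter region of 8 ETS genes (horizontal axis) in each control (circle) and DTP (triangle) library of the 4 lines. EHF in H1975 runs from 4.95 to 8.12 CPM in control down to 1 to 1.57 in DTP libraries, ETV1 drops in H1975 only, and the ELF3 and ETS2 points of control and DTP libraries lie close together within most lines.

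Promoters most like those of ETV4 and ETV5 were named by Pearson r over the 14 group means, centred within each line, among 14627 matched promoters. For ETV4 they were FOSL1 (r 0.936), an AP-1 subunit, LOC100288123 (0.929) and KCNG3 (0.928), and for ETV5 KIF18B (0.941), CSDC2 (0.938) and CEP68 (0.931). Among the strongest matched promoter regions of the members, those of ETS1 and ETV4 had an r of 0.712 and those of ETV5 and ETV1 of 0.681. The ELF3 region, which is not over the RefSeq start, ran opposite to those of ETS1 (-0.75) and ETV4 (-0.734). Summed over all regions this differed. ELF3 and ETV4 both fell in DTP cells of PC9, H1975 and HCC2935, while ETS1 rose in H1975 and HCC2935. The points behind each r share lines and control groups, and the values are a description.

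Of 18 other ETS genes, 5 of 18 measured rose and 5 fell in PC9 DTP cells (19.5% and 22.7% of all genes), 4 rose and 6 fell of 16 in H1975 (34.1% and 34.9%), 4 rose and 3 fell of 17 in HCC2935 (25.2% each way), and none of 13 was called in HCC827 (1.1% and 1.34%). Their median changes, -0.0114, 0.000573, 0.0261 and -0.0294, lay closer to those of all genes than the members' did. SPDEF, a factor of secretory epithelium, fell in 3 lines, with -0.72 ± 0.091 in PC9, -0.77 ± 0.067 in H1975 and -0.47 ± 0.077 in HCC2935 (log2 change ± SE, edgeR adjusted p 3.5e-13, 2.28e-20 and 1.14e-05). ETV6, a repressor of the family, fell in PC9 and H1975, with -0.21 ± 0.045 and -0.17 ± 0.055, and rose in HCC2935, by 0.33 ± 0.076 (edgeR adjusted p 2.14e-05, 0.00441 and 0.000711). Both were singled out after their values were seen. The other ETS genes were read neither with the libraries summed nor with regional medians removed.

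Of 6 genes that repress or degrade PEA3 factors, 2 rose and 1 fell in PC9 DTP cells (19.5% and 22.7% of all genes), 4 rose and 2 fell in H1975 (34.1% and 34.9%), 0 rose and 2 fell in HCC2935 (25.2% each way), and none was called in HCC827 (1.1% and 1.34%). CIC, the repressor of the group, rose by 0.11 ± 0.046 in PC9 and fell, with -0.28 ± 0.057, in H1975 (log2 change ± SE, edgeR adjusted p 0.0386 and 5.12e-06). Its partner ATXN1 fell in PC9, H1975 and HCC2935, with -0.39 ± 0.072, -0.29 ± 0.050 and -0.20 ± 0.063 (edgeR adjusted p 6.97e-07, 1.26e-07 and 0.0114). COP1, the ligase subunit that marks PEA3 proteins for degradation, rose in H1975 by 0.47 ± 0.066, with its partners DET1 and DDB1 at 0.16 ± 0.070 and 0.39 ± 0.10 (edgeR adjusted p 2.58e-10, 0.0318 and 0.000627). Under AZD5153 alone in H1975, DDB1 rose by 1.43 ± 0.091 (edgeR adjusted p 1.54e-30). These 6 genes were read neither with the libraries summed nor with regional medians removed. Whether their calls in PC9 and H1975 would stay was not tested.

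The authors' peak lists covered most member regions in most libraries. In PC9 65 to 70 of the 74 regions overlapped a peak in a library, in H1975 65 to 70, in HCC2935 59 to 69, and in HCC827 15 to 30 of 30. The distal ELF3 region at 33 kb had a peak in 3 control libraries and 1 DTP library of H1975, and the ETV4 promoter region that opened had none in control libraries and 3 in DTP libraries of both H1975 and HCC2935. These peaks come from the same libraries as the counts and are no separate support. Without a control peak, the ETV4 region may have entered the region set only through treated libraries.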

How the data were processed

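The ATAC-seq data cover 14 groups of 3 libraries in 4 lung cancer lines, and the deposited tables were the starting point. The submitters' processing notes name BWA 0.7.17, SAMtools 1.9, deepTools 3.4, MACS2 2.2.6, featureCounts 2.0.0, ChIPseeker 1.29.1 and hg38. The authors deposited raw counts per region of 502 bp, 1 table per line, with the nearest gene given by their annotation. The authors also deposited peak lists per library with a fold enrichment ratio and a −log10 q-value, which were used to count the libraries with a peak at a region.

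Counts were fitted per line in edgeR 4.0.16 (R 4.3.3) by the quasi-likelihood test over all groups, with TMM scaling and the tool's filter on low counts, once per region and once on counts summed per gene, and p-values were adjusted over all regions or genes of the line. SE is the log2 fold change over the root of the F statistic. Matched regions (reciprocal overlap of at least 50%) were fitted in limma 3.58.1 with quality weights. The median change quoted for a 10 Mb stretch is the median log2 fold change of all tested regions in it. In the fit with regional medians removed, the offset of a library was its median log2 deviation from the mean of all libraries. That offset was taken per 10 Mb stretch with at least 50 regions. Alternatives were DESeq2 1.42.0 and its size factors, library size only, no filter, the replicate block, regional medians removed, only the groups compared, each replicate left out and, in PC9 and H1975, libraries summed. The scripts were tested on simulated data. Coordinates are hg38 and printed sequences GRCh38.p14, from RefSeq.

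Same-numbered HCC827 libraries deviated together (correlation of deviations 0.257 to 0.827 over 9 pairs), so its blocked values are given. In the other lines the correlations ran from -0.074 to 0.206. P-values in PC9 and H1975 measure a spread that is mostly counting noise, so the labelled triplicates may be technical. Ratios of low counts carry 95% intervals for counting error only. A region low in control cells may have entered the region set through the group where it is high, which the intervals do not cover.

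The genes, gene lists and tests were chosen with earlier results of these data known. Regions were named by rule: the strongest promoter region of each gene and line and, among called regions with separate libraries and a level above the median, the 2 largest rises and falls for DTP and the largest of each for the AZD5153 comparisons, in HCC827 those called with the block. Other named regions are marked as picked after their values were seen.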

Additional observations from a re-analysis of the deposited data

Results flagged for a closer look

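The DTP change of 4 promoters differed between the lines in the limma fit over matched regions, with adjusted p of 1.16e-06 for ETV5, 9.43e-15 for ETV1, 0.00664 for ETS1 and 5.82e-10 for EHF. ETV1 and EHF were lowest in H1975, and ETS1 was above 0 in HCC2935, where its promoter turned to -0.14 with regional medians removed.

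The change from DTP to combo cells differed from that from control to AZD5153 cells by the edgeR interaction test. Whether osimertinib stayed on in combo cells is not given. The test thus cannot tell AZD5153 from days without osimertinib. In PC9 the log2 differences were 0.39 for EHF, 0.14 for ELF3, -0.3 for ETV1 and 0.24 for ETV4. Of these none was called with the libraries summed. In H1975 they were 1.6 for ELF3, 0.72 for ETS2, 0.5 for ETV1, 0.42 for ELK3, 0.26 for EHF, 0.26 for ETV5, -0.28 for ETV4, -0.52 for ETS1 and -1.41 for ERG. The contrasts of a line share no library, and 70.3% of all H1975 genes passed the same test. With regional medians removed the H1975 values of ETV1 and ETV5 turned negative, and ELK3 (0.014, edgeR adjusted p 0.892) and ETS1 (-0.11, edgeR adjusted p 0.135) lost the call. With the libraries summed EHF, ETV4 and ETV5 lost it.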

How the results depend on the processing

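Of the alternatives for single regions and genes, 2561 kept direction and side of the threshold, 150 lost the call, 22 gained one and 9 changed sign, and of the counts of members called, 267 stayed within 1.5 times and 39 did not. The cause of these changes was not tested, beyond the fewer samples in a fit that sums or leaves out libraries.

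With the libraries of a group summed, called regions went from 39 to 22 for DTP, 28 to 10 for combo and 28 to 16 for AZD5153 in PC9, and from 26 to 4 for combo in H1975. Called genes went from 7 to 3, 4 to 0 and 3 to 1 in PC9, with the interaction from 4 to 0, and from 2 to 0 for combo in H1975. For combo regions DESeq2 called 13 of PC9 (28 in edgeR), 17 of H1975 (26) and 6 of HCC2935 (14), and with no filter HCC2935 had 8. The PC9 interaction had 2 genes by library size only and 1 with regional medians removed, and H1975 combo 4 genes with regional medians removed. The HCC827 gene count for DTP was 0 instead of 1 by library size only, with regional medians removed and with only the groups compared.

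With the replicate block HCC827 had 2 called regions for DTP in place of 0, and the block moved no other count of members by more than 1.5 times. Same-numbered libraries of the other lines share only a number. In the joint fit the block left 7 control differences of 8.

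Leaving out 1 library gave in PC9 6 to 7 genes and 34 to 39 regions for DTP, 2 to 5 and 21 to 26 for combo, 3 to 4 and 21 to 26 for AZD5153, and 2 to 4 genes for the interaction. In H1975 it gave 9 genes and 52 to 55 regions for DTP, 2 to 4 and 18 to 24 for combo, 8 to 9 and 51 to 56 for AZD5153, and 9 genes for the interaction. In HCC2935 it gave 8 to 9 genes and 38 to 44 regions for DTP and 1 to 3 and 6 to 11 for combo, and in HCC827 0 throughout. Without HCC827 the joint fit called 7 control differences and 4 DTP differences.

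With regional medians removed the sign changed for AZD5153 in H1975 at ETV1 (0.10), ETV5 (0.20) and the ETV5 promoter (0.40, and 0.12 by library size only, from an uncalled -0.10), for the H1975 interaction at ETV1 (-0.26) and ETV5 (-0.31), and for DTP in HCC2935 at EHF (-0.37), the EHF promoter (-0.65) and the ETS1 promoter (-0.14). HCC827, with 1724680 counts in its shallowest library, limits what could be called there.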
